A study of Mus musculus with 3 samples.

Results

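The comparison described here sets all kept cells of a culture left without supplements until 14 dpi against all kept cells of a culture taken at 4 dpi, during the conversion of mouse fibroblasts toward motor neurons (dpi is the time unit of the labels). A cell was kept with at least 500 detected genes and at most 20% of its unique molecular identifiers (UMIs, counted transcript molecules) from mitochondrially encoded genes. That rule kept 3716 cells at 14 dpi without supplements and 4492 at 4 dpi, 8208 of the 10522 cells kept in the whole series. The remaining 2314 cells belong to a 14 dpi culture with supplements, given below only for comparison.

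Cells of every library had the genotype Hb9::GFP, a fluorescent reporter of the Mnx1 promoter, which is active in motor neurons. All had received LNI, the single cassette mLhx3-P2A-mNgn2x3HA-T2A-Isl1 of 3 transcription factors (Ngn2 is the gene Neurog2), and DDRR, HRAS(G12V)-IRES-p53DD, an activated RAS with a fragment that blocks p53. The 14 dpi cells were taken with papain and DNase and sorted as Hb9::GFP-positive, without BDNF, CNTF, GDNF, FGF and RepSox in the culture. The 4 dpi cells were taken with trypsin and sorted for low signal of CellTrace-FarRed, a dye diluted by division, from a culture with supplements. Each group is 1 library, and the labels give all libraries the same batch. Time, supplements, gate, dissociation and depth therefore change together and cannot be told apart, and no value below has a replicate check.

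Kept cells held 45855979 UMIs at 14 dpi without supplements and 12202809 at 4 dpi, with medians of 10664 and 2312.5 UMIs per cell. Levels are CPM, the UMIs of a gene per 1000000 UMIs summed over the kept cells, and a ratio is the log2 of CPM at 14 dpi without supplements over CPM at 4 dpi. In such sums, fewer cells of a type and less RNA per cell cannot be told apart. Intervals are 95% and cover counting error only. A single UMI at 4 dpi is worth 0.0819 CPM, which is the level of Ret there. The 2 libraries shared 4 cell barcodes.

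The labelled conversion was checked against marker lists. Neuron markers summed to 7835 CPM at 14 dpi without supplements and 2225 CPM at 4 dpi, and fibroblast markers to 9168 and 17550 CPM. With each cell thinned to 1000 UMIs, 1769 of 3694 cells at 14 dpi (47.9%, interval 46.3 to 49.5) held more neuron than fibroblast marker UMIs, against 196 of 4379 at 4 dpi (4.48%, 3.88 to 5.13). The cells sorted as Hb9::GFP-positive are thus a mixture by these markers, with 49.2% holding more fibroblast marker UMIs. No Schwann or macrophage marker reached 10 CPM in either library. Macrophage markers summed to 11.2 CPM at 14 dpi and 23.8 CPM at 4 dpi, and Schwann and glial markers to 8.83 and 6.88 CPM.

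Conversion of fibroblasts by transcription factors asks a dividing mesenchymal cell to leave the cell cycle, give up its matrix and contractile program and assemble axons, synapses and excitable membrane. Neurog2 is a proneural factor, and Lhx3 with Isl1 specifies motor neurons in the embryo. Interferon-stimulated genes are a defence program against viruses that most cell types, fibroblasts included, can switch on.

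Of 9474 genes at 10 CPM or more in either library, 1488 (15.7%) were at least 2-fold higher at 14 dpi without supplements and 913 (9.64%) at least 2-fold lower. Ratios of at least 8-fold were reached by 266 genes (2.81%) upward and 69 genes (0.728%) downward. The median ratio of all 9474 genes was 0.09, with quartiles of -0.41 and 0.65. Genes at least 2-fold higher took 11.4% of the UMIs at 14 dpi and 3.50% at 4 dpi. Of the 9474 genes, 7669 reached 10 CPM in both libraries, and of those 8.70% were at least 2-fold higher and 6.95% lower. The others passed through 1 library and so had to differ, which weighs on every list below.

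**Figure D1:**
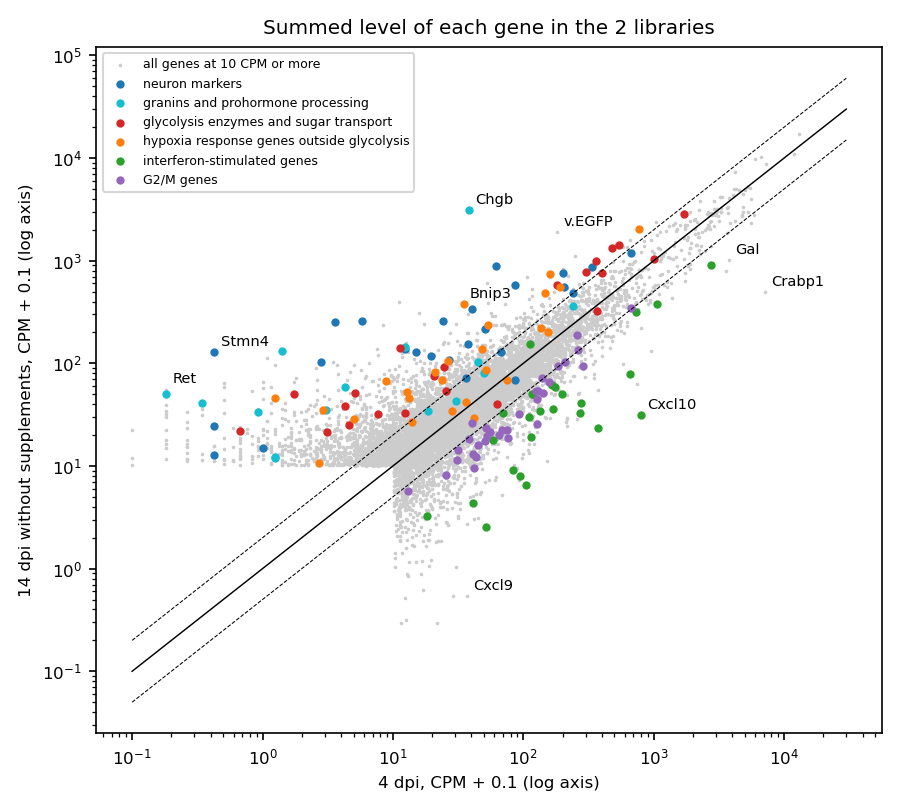
Summed level of each gene at 4 dpi (x axis) and at 14 dpi without supplements (y axis), in CPM plus 0.1 on log axes; each point is 1 gene, the solid line is equality and the dashed lines are 2-fold. Most neuron markers (21 of 25) and granins (11 of 15) lie above the upper dashed line and most interferon-stimulated (24 of 25) and G2/M genes (26 of 32) below the lower one, and Chgb (3111 against 38.3 CPM) and Cxcl10 (31.5 against 797 CPM) stand far out on either side.

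Genes of the neuronal cytoskeleton stood higher at 14 dpi without supplements. All 25 neuron markers were measured and 21 were at least 2-fold higher, none lower, with a median ratio of 2.77. Of these 25, 7 passed the 10 CPM minimum only through the 14 dpi library, and 14 of the other 18 were at least 2-fold higher. Among the stathmins, which bind tubulin dimers and regulate microtubules in growing axons, Stmn4 was at 129 CPM at 14 dpi and 0.328 CPM at 4 dpi, from 4 UMIs, a ratio of 8.62 (interval 7.27 to 10.50). Stmn3 was at 256 against 3.52 CPM and Stmn2 at 258 against 5.74 CPM. The tau gene Mapt stood at 103 against 2.70 CPM (5.25) and the migrating-neuron protein gene Dcx at 138 against 12.2 CPM (3.50).

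Other parts of the cytoskeleton were mixed. The neuronal tubulin Tubb3 was at 487 against 241 CPM (1.01), the light neurofilament Nefl at 1182 against 664 CPM (0.83), and Thy1, a surface glycoprotein also found on fibroblasts, at 68.6 against 85.9 CPM (-0.32). Tubulin isotypes split, with 5 of 12 measured at least 2-fold higher and 1 lower. Tubb2b (693 against 106 CPM) and Tubb4a (23.6 against 1.56 CPM) were the highest by ratio, and Tubb6, a broadly expressed isotype, was the lowest at 73.3 against 200 CPM (-1.45). Of 23 measured microtubule-associated and motor genes, 16 were at least 2-fold higher and none lower, with a median of 2.02. Among kinesins, the neuronal heavy chain Kif5a stood at 35.9 against 2.13 CPM (4.08), while its ubiquitous relative Kif5b stood at 273 against 372 CPM (-0.45).

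**Figure D2:**
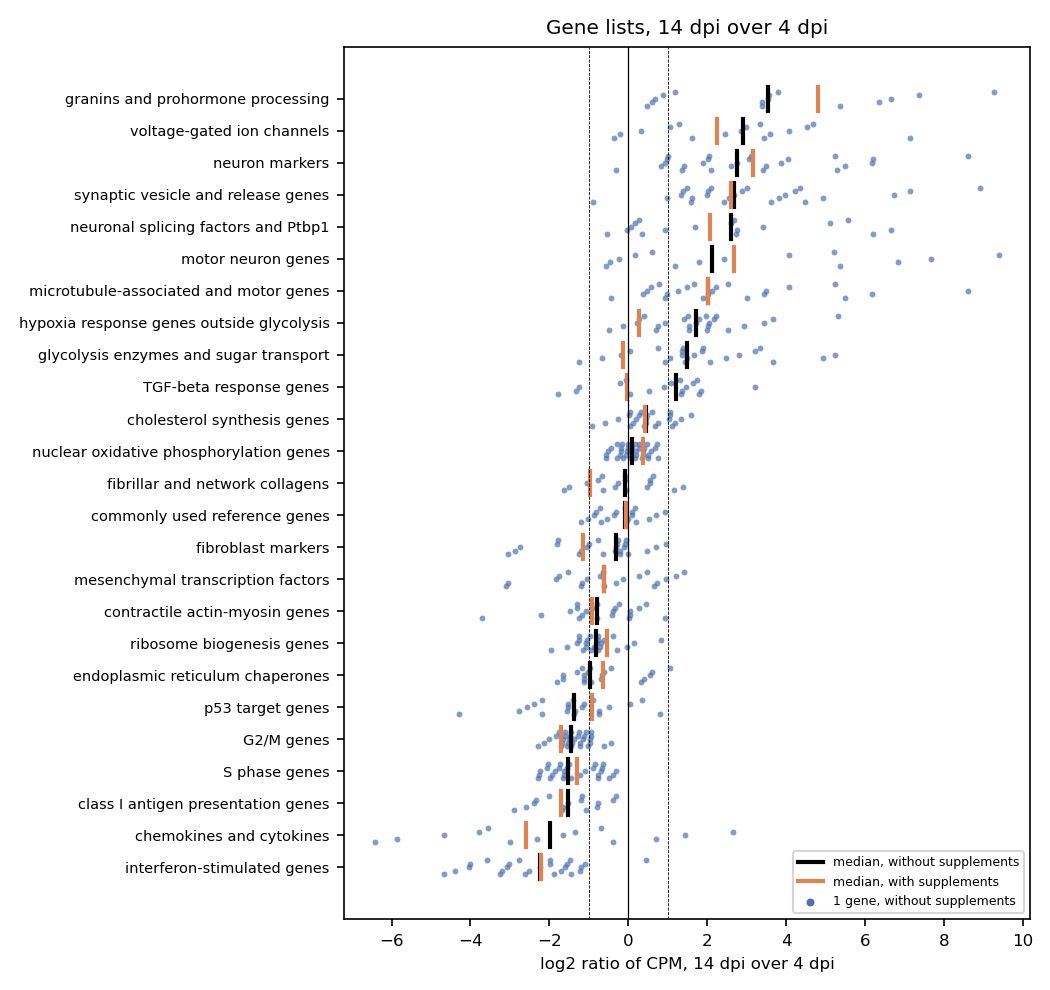
Log2 ratio of CPM, 14 dpi over 4 dpi (x axis), for the measured members of 25 gene lists (y axis); each point is 1 gene without supplements, black bars are medians without supplements and orange bars medians with supplements, and dashed lines mark 2-fold. The granin median is 3.54 and the interferon median -2.24, and the black and orange bars of the glycolysis list lie on opposite sides of 0.

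Synaptic release genes showed the same direction. Of 25 measured, 23 were at least 2-fold higher, 1 more was higher by less and Sv2b, a vesicle glycoprotein, was lower (12.4 against 23.2 CPM, -0.90). The median was 2.69, and 15 of the 25 passed the minimum only through the 14 dpi library. Of the other 10, 8 were at least 2-fold higher. Snap25 and Syt1 belong to this list and to the neuron markers. Complexin 1, Cplx1, which clamps and triggers the fusion machinery, had 1810 UMIs at 14 dpi (39.5 CPM) and 1 at 4 dpi (0.0819 CPM), a ratio of 8.91 (6.43 to 14.22). The vesicle-trafficking gene Syt4 was at 43.9 against 0.410 CPM (6.75) and beta-synuclein Sncb at 23.2 against 0.164 CPM (7.15, interval 5.29 to 10.19, from 2 UMIs at 4 dpi). Snap25, a core fusion protein, was already at 36.4 CPM at 4 dpi and stood at 71.9 CPM at 14 dpi (0.98).

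Most measured excitability genes were under 10 CPM at 4 dpi. Of 16 measured voltage-gated channel genes, 13 were at least 2-fold higher and none lower (median 2.92), and 10 of the 16 passed the minimum only through the 14 dpi library. Of the other 6, 3 were at least 2-fold higher. The calcium channel genes Cacna1e and Cacna1b were at 23.1 and 17.8 CPM, against 0.901 and 2.46 CPM. Among 11 measured neurotransmitter receptor genes, 9 were at least 2-fold higher and Grin3a was at least 2-fold lower. Of the 11, 7 passed only through the 14 dpi library, and 2 of the 3 that passed in both libraries were at least 2-fold higher. Gria2, the AMPA-receptor subunit that limits calcium entry, stood at 96.6 against 1.15 CPM (6.39).

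Genes of the regulated secretory pathway, shared by neurons and endocrine cells, stood higher. Chgb, chromogranin B of dense-core granules, was at 3111 CPM (142649 UMIs) at 14 dpi without supplements and 38.3 CPM at 4 dpi, a ratio of 6.34 (6.21 to 6.48). After thinning to 1000 UMIs, 47.7% of 14 dpi cells (46.1 to 49.4) and 1.76% of 4 dpi cells (1.39 to 2.19) held a Chgb UMI. As a background for RNA from other cells, in the 10% of cells richest in fibroblast markers the shares were 6.78% and 0.229%. Of 15 measured granin and prohormone processing genes, 11 were at least 2-fold higher and none lower, with a median of 3.54. Of these 15, 8 passed the 10 CPM minimum only through the 14 dpi library, and 3 of the other 7 were at least 2-fold higher. Resp18, an endocrine secretory protein gene, was at 50.6 CPM against 1 UMI (9.27, interval 6.79 to 14.57), and Scg5, a chaperone of prohormone convertase, at 40.9 CPM against 3 UMIs (7.38, 5.83 to 9.66). The convertase inhibitor gene Pcsk1n was at 133 against 1.31 CPM (6.66).

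Neuropeptide genes differed one from another. Cck, which encodes cholecystokinin, had 607 against 52.5 CPM (3.53), and the thinned share of cells with a Cck UMI was 30.1% against 2.99%, with 14.1% and 1.83% in the fibroblast-richest 10%. Prok2, a secreted prokineticin, was at 34.4 CPM against 1 UMI (8.71, interval 6.24 to 14.02), and Cartpt at 22.4 CPM against 1 UMI (8.09, 5.61 to 13.40). With supplements, Cartpt stood at 332 CPM and Cck at 122 CPM. Galanin, Gal, a peptide raised in injured neurons, lay on the other side. It was at 1020 CPM at 14 dpi without supplements and 3768 CPM at 4 dpi (-1.89, interval -1.90 to -1.87), while the library with supplements had 7261 CPM. The thinned share of cells with a Gal UMI was 20.2% without supplements, 32.4% at 4 dpi and 54.0% with supplements.

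Factors that regulate the neuronal program differed unevenly. Of 17 measured splicing factors, 10 were at least 2-fold higher and none lower. Of these 17, 7 passed the minimum only through the 14 dpi library, and 3 of the other 10 were at least 2-fold higher. The splicing list shares 5 genes with the neuron markers. Rbfox3, the nuclear antigen NeuN, was at 24.3 against 0.328 CPM (6.21), and Srrm3, an activator of neuronal microexons, at 16.4 CPM against 2 UMIs (6.65, 4.79 to 9.70). Ptbp1, the splicing repressor of non-neuronal cells, was at 53.8 against 78.0 CPM (-0.54). Of 18 measured neuronal transcription factors, 8 were at least 2-fold higher and Zeb2 was at least 2-fold lower, with a median of 0.24 beside 0.09 for all genes. That direction turned within subsets of cells. The median was -0.77 with only cells holding a v.EGFP UMI in either library, -0.49 in cells with more neuron than fibroblast marker UMIs and -0.62 in cells with more fibroblast marker UMIs. Myt1l, a repressor of non-neuronal fates, stood at 14.4 against 0.410 CPM (5.13) and Nhlh2 at 311 against 56.8 CPM (2.45). Sox11 and Neurod1 were already present at 4 dpi and stood at 513 against 613 CPM and 67.8 against 81.9 CPM. Actl6b, the neuronal subunit of the BAF chromatin remodeller, was at 11.7 CPM against 2 UMIs (6.16, 4.30 to 9.21), and its partner in dividing cells, Actl6a, at 48.8 against 87.4 CPM (-0.84). Rest, which represses neuronal genes outside neurons, stood at 36.6 against 98.8 CPM (-1.43).

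Motor neuron genes ran from far higher to lower. Of the 20 listed, 14 were measured, 9 were at least 2-fold higher and none was at least 2-fold lower, and 7 of the 14 passed only through the 14 dpi library. Of the other 7, 2 were at least 2-fold higher. Ret, the GDNF receptor tyrosine kinase, was at 55.5 CPM (2543 UMIs) against 1 UMI, a ratio of 9.40 (6.92 to 14.71). Its thinned share was 5.71% of cells against 0.0228%, with 1.35% in the fibroblast-richest 10% at 14 dpi. Ecel1, an endopeptidase needed for motor axon branching, was at 112 against 0.983 CPM (6.83), and Ache, which breaks down acetylcholine, at 33.3 CPM against 2 UMIs (7.67, 5.81 to 10.71). Slc5a7, the choline transporter, was at 28.1 against 39.1 CPM (-0.48), and Gfra1, a GDNF co-receptor, at 134 against 199.5 CPM (-0.57). Chat, the acetylcholine synthase, had 185 UMIs at 14 dpi (4.03 CPM) and 0 at 4 dpi. Against 3 counts at 4 dpi it was at least 16.4-fold higher.

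The introduced factors stood lower or level at 14 dpi, and counts do not separate them from the cell's own transcripts. Ratios were -0.97 for Lhx3, -1.44 for Neurog2, -0.51 for Isl1, 0.02 for Hras and -1.21 for Trp53. The reporter transcript v.EGFP had a ratio of 3.40 (3.33 to 3.46), a gene on which the 14 dpi cells were sorted and the 4 dpi cells were not. In thinned cells it was found in 62.1% at 14 dpi and 4.82% at 4 dpi, against 18.97% and 0.229% in the fibroblast-richest 10%. Before thinning, 88.7% of kept cells at 14 dpi and 5.97% at 4 dpi held a v.EGFP UMI. Taking only those cells, chosen before thinning, therefore changes mainly the 4 dpi side. With only cells holding a v.EGFP UMI in either library, 14 neuron markers and 17 synaptic genes were at least 2-fold higher, where 13.6% of 9572 measured genes were at least 2-fold higher and 11.7% lower. The median ratio of the synaptic list was then 1.56.

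**Figure D3:**
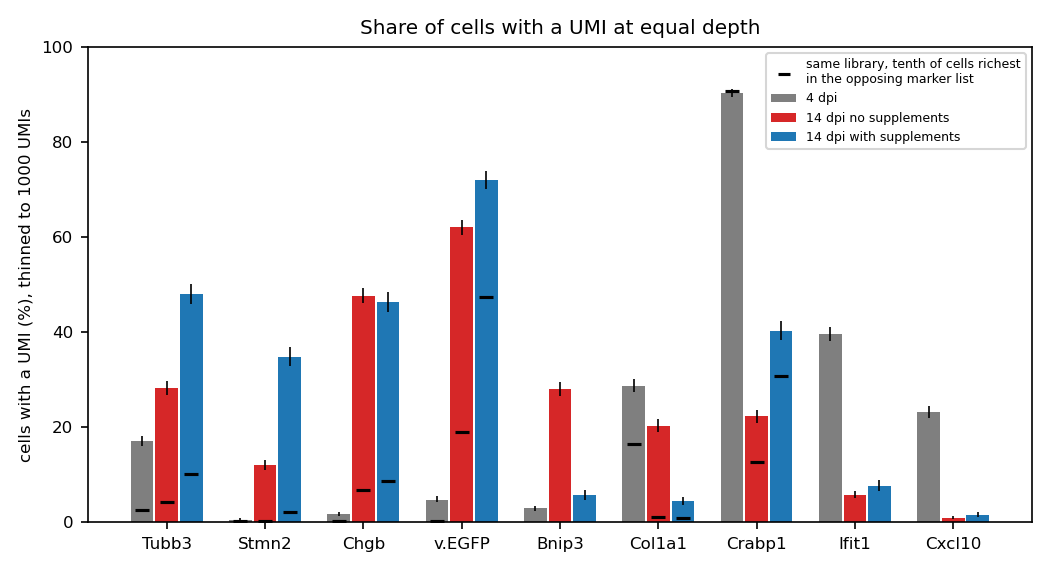
Share of cells with at least 1 UMI of each gene (y axis, percent, 0 to 100) after thinning every cell to 1000 UMIs, by library; error bars are exact binomial 95% intervals for counting error, and black dashes give the share in the 10% of cells of the same library richest in fibroblast markers (Tubb3, Stmn2, Chgb, v.EGFP) or neuron markers (Col1a1, Crabp1), with none set for Bnip3, Ifit1 and Cxcl10. Chgb stands at 1.76% at 4 dpi and 47.7% without supplements, and Crabp1 at 90.4% and 22.3%.

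The fibroblast program was lower in parts rather than throughout. Of 24 fibroblast markers, 8 were at least 2-fold lower and none higher, and the median was -0.31. Twist2, a mesenchymal transcription factor, stood at 4.97 against 40.97 CPM (-3.04), and the matrix proteoglycans Dcn and Lum at 131 against 955 CPM (-2.87) and 55.5 against 371 CPM (-2.74). Col1a1, the main fibrillar collagen chain, was at 432 against 450 CPM (-0.06), and Fap, a fibroblast surface protease, was at 20.2 against 10.5 CPM (0.95). Among 17 measured collagens, 2 were at least 2-fold higher and 3 lower, with a median of -0.09, which was 1.12 with only cells holding a v.EGFP UMI. The collagen list shares 8 genes with the fibroblast markers. In the library with supplements Col1a1 was at 68.1 CPM, and its thinned share was 4.42% of cells, against 20.4% without supplements and 28.7% at 4 dpi. Lysyl oxidase, Lox, which crosslinks collagen, was at 96.7 against 27.9 CPM (1.79), and 13.0 CPM with supplements. With only cells holding a v.EGFP UMI in either library, 2 fibroblast markers were at least 2-fold lower and the median of the list was 0.43, on the other side of 0.

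Crabp1, which binds retinoic acid in embryonic mesenchyme and neurons, had a lower ratio than any fibroblast marker. It was at 497 CPM at 14 dpi without supplements and 7099 CPM at 4 dpi (-3.84, interval -3.86 to -3.82), a 14.3-fold difference. At 4 dpi 90.4% of thinned cells held a Crabp1 UMI, and so did 90.8% of the cells richest in neuron markers. Contractile genes were lower too, with 8 of 21 measured at least 2-fold lower, none higher and a median of -0.79. Among these 21, 2 passed the 10 CPM minimum only through the 4 dpi library, and 6 of the other 19 were at least 2-fold lower. Smooth muscle actin Acta2 stood at 7.13 against 93.3 CPM (-3.71), the filament crosslinker Flna at 58.4 against 164 CPM (-1.49) and caldesmon Cald1 at 336 against 755 CPM (-1.17). Of 18 measured matrix proteases and inhibitors, 7 were at least 2-fold lower, led by Mmp23 (1.79 against 18.4 CPM), and 1 was higher, Mmp3 (104 against 31.1 CPM). The minimum was passed only through the 4 dpi library by 5 of the 18, Mmp23 among them. Of the other 13, 3 were at least 2-fold lower. The median of these proteases and inhibitors was -0.53, and 0.46 with only cells holding a v.EGFP UMI. The lysosomal protease Ctsl was at 790 against 3577 CPM (-2.18).

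Proliferation genes were lower at 14 dpi without supplements, where the 4 dpi gate had chosen cells with diluted dye. Of 32 G2/M genes, all measured, 26 were at least 2-fold lower and none higher (median -1.44), and of 28 measured S phase genes 18 were at least 2-fold lower (median -1.53). The minimum was passed only through the 4 dpi library by 3 of these G2/M genes and 7 of these S phase genes. Among the others, 23 of 29 G2/M and 12 of 21 S phase genes were at least 2-fold lower. The kinetochore motor Cenpe stood at 25.8 against 126 CPM (-2.29), and ribonucleotide reductase Rrm2 at 20.4 against 100.2 CPM (-2.30). In thinned cells, 3.09% held a Mki67 UMI against 9.36% at 4 dpi. G2/M UMIs were spread unevenly at 14 dpi, where the richest 10% of cells held 72.2% of them, against 39.6% at 4 dpi. Inhibitors of cyclin-dependent kinases did not move together, with Cdkn1b at 85.2 against 33.4 CPM (1.35), Cdkn2d at 116 against 40.2 CPM (1.53) and Cdkn1a at 179 against 474 CPM (-1.40).

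Targets of p53 were lower in a culture where DDRR carries a p53 inhibitor at both times. Of 21 measured, 14 were at least 2-fold lower and none at least 2-fold higher, with a median of -1.38. Over all measured genes 9.64% were at least 2-fold lower. The minimum was passed only through the 4 dpi library by 4 of the 21, Fas and Ano3 among them. Of the other 17, 10 were at least 2-fold lower. The cyclin Ccng1 stood at 51.0 against 265 CPM (-2.38), the death receptor gene Fas at 4.41 against 25.9 CPM (-2.56) and the membrane protein gene Ano3 at 0.960 against 18.8 CPM (-4.29). Bax, a mediator of apoptosis, was at 166 against 479 CPM (-1.52), and Mdm2, which degrades p53, at 46.1 against 116 CPM (-1.34). Sesn1, Bbc3 and Plk3 did not share that direction, with ratios of 0.81, 0.35 and 0.06. With only cells holding a v.EGFP UMI, 8 of 18 measured p53 targets were at least 2-fold lower, where 11.7% of all measured genes were.

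Genes of growth and protein folding were lower as well. Of 24 measured ribosome biogenesis genes, 9 were at least 2-fold lower and none higher (median -0.83), led by Utp20 (7.57 against 29.5 CPM) and Ddx21 (34.1 against 100.1 CPM). Of 20 endoplasmic reticulum chaperones, 9 were at least 2-fold lower and 1 higher (median -0.96, but -0.30 with only cells holding a v.EGFP UMI), with Creld2 at 18.1 against 63.2 CPM and calreticulin, Calr, at 435 against 1371 CPM. The integrated stress response list had a median of -0.0037 and Atf4 a level of 163 against 139.6 CPM. Nuclear genes of oxidative phosphorylation had a median of 0.08, and none of the 36 measured differed 2-fold. The reference gene list had a median of -0.08, with Hprt at 97.4 against 67.8 CPM and Actb at 2993 against 5246 CPM.

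Interferon-stimulated genes were lower nearly throughout. Of 25 measured, 24 were at least 2-fold lower at 14 dpi without supplements and none higher by that much, with a median of -2.24. The minimum was passed only through the 4 dpi library by 6 of the 25, Gbp2 among them. Of the other 19, 18 were at least 2-fold lower. Together the listed genes took 2395 CPM against 8726 CPM. Cxcl10, a chemokine that draws T cells, stood at 31.5 against 797 CPM (-4.66, interval -4.74 to -4.58). The RNA-binding effector gene Ifit1 was at 77.8 against 657 CPM (-3.08), the ubiquitin-like modifier Isg15 at 319 against 729 CPM (-1.19), and tetherin, Bst2, which holds budding virions, at 381 against 1056 CPM (-1.47). The guanylate-binding protein Gbp2 was at 2.46 against 51.7 CPM (-4.39), and Ifi27 was the exception at 154 against 112 CPM (0.45). Ifit3 and Ifit3b (-4.00 and -4.03) are near-identical copies whose reads the counting could split.

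Promoter sequence is printed for 4 of these genes to show a repeat of GAAA that they hold. They are the measured members with the highest CPM at 4 dpi among those with GAAA, any 2 bases and GAAA again, on either strand, in the 250 bases before the RefSeq start. RefSeq's table is on GRCm38.p6, another build than the GRCm39 of the counts. Capitals mark each match, with TTTC in place of GAAA where it lies on the other strand, and overlapping matches run together. The windows are chr8:71537473-71537722 (minus strand) for Bst2, chr5:92348890-92349139 (minus) for Cxcl10, chr4:156200819-156201068 (minus) for Isg15 and chr19:34640639-34640888 (plus) for Ifit1, each written in the direction of its gene.
Bst2: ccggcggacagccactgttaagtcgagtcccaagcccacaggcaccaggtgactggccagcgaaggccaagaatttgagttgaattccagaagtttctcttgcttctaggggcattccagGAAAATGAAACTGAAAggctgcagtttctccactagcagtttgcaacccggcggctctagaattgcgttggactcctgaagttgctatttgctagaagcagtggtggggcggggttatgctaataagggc
Cxcl10: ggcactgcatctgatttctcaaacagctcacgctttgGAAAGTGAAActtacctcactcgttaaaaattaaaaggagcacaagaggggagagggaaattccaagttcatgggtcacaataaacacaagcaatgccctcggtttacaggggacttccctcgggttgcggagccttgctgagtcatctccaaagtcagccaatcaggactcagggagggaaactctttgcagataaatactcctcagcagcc
Isg15: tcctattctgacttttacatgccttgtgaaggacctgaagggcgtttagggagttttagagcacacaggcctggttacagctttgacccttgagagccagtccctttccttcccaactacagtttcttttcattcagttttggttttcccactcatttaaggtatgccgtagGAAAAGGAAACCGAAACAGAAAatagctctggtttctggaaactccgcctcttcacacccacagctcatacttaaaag
Ifit1: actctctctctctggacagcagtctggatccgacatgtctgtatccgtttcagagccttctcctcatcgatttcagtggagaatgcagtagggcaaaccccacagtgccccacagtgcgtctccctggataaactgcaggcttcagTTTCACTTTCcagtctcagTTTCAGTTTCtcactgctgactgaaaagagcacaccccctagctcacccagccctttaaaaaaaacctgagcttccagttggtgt

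Of 29 interferon-stimulated genes, 22 had a promoter in the table and 12 of those (54.5%) held this repeat, against 3.46% of all 27025 symbols. Isg15 held 3 overlapping matches, 78 to 57 bases before its start, Bst2 held 2 and Cxcl10 held 1, 213 to 204 bases before its start. Ifit1 held 2 matches on the other strand. The motif was chosen after the levels were known, and a match is a description of the letters. Of 23 glycolysis promoters in the table, 0 held it.

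The interferon difference was spread over many cells. After thinning to 1000 UMIs, the median cell held 2 UMIs of the list at 14 dpi without supplements and 7 at 4 dpi, and 16.97% against 69.0% of cells held at least 5. Cxcl10 UMIs were found in 0.920% of cells against 23.2%, and Ifit1 UMIs in 5.77% against 39.5%. Without the 10% of cells richest in the list in each library, 24 members were at least 2-fold lower, where 10.0% of 9501 genes were. Among cells with more fibroblast than neuron marker UMIs, where 8.25% of all measured genes were at least 2-fold lower, 19 of 25 measured members were, with a median of -1.93, and among cells with more neuron marker UMIs, where 14.6% of all were, 24 of 25 were, with -2.96. At 14 dpi with supplements, where 15.4% of 9415 genes were at least 2-fold higher and 10.1% lower, the median against the same 4 dpi library was -2.21, and Cxcl10 and Ifit1 stood at 25.6 and 98.7 CPM.

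Antigen presentation and chemokine genes lay on the same side. Of 15 measured class I presentation genes, 11 were at least 2-fold lower and none higher (median -1.54). Among these 15, 3 passed the minimum only through the 4 dpi library, and 9 of the other 12 were at least 2-fold lower. The immunoproteasome subunit Psmb9 was at 4.23 against 31.7 CPM (-2.91), the peptide transporter Tap1 at 11.6 against 58.8 CPM (-2.34) and B2m, the light chain of class I molecules, at 477 against 1092 CPM (-1.20). Calr and Pdia3 belong to this list and to that of the chaperones. Of 14 measured chemokines and cytokines, 9 were at least 2-fold lower and 2 higher. Among these 14, 4 passed the minimum only through the 4 dpi library and 2 only through the 14 dpi library. Of the other 8, 5 were at least 2-fold lower and none higher. Cxcl9 had 20 UMIs at 14 dpi (0.436 CPM) and 37.1 CPM at 4 dpi (-6.41, interval -7.14 to -5.77), and the monocyte attractant Ccl2 stood at 63.0 against 747 CPM (-3.57). Tslp and Cx3cl1 were higher, at 24.6 against 9.10 CPM and 10.2 against 1.64 CPM.

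**Figure D4:**
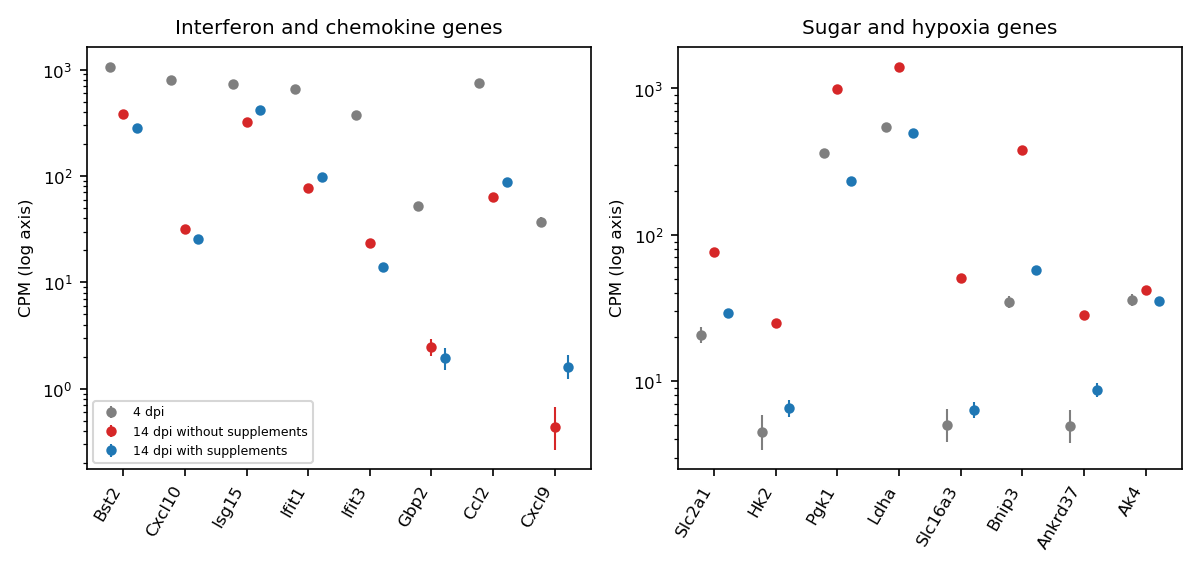
CPM of 8 interferon and chemokine genes (left) and 8 sugar and hypoxia genes (right) in each library on a log axis; points are summed levels and bars exact Poisson 95% intervals, often smaller than the point. Both 14 dpi libraries lie below 4 dpi on the left, while on the right the library without supplements lies above both others, as for Bnip3 at 379 CPM against 34.8 and 57.9 CPM.

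Genes of sugar use were higher at 14 dpi without supplements. Of 23 measured glycolysis and sugar transport genes, 17 were at least 2-fold higher and 1 lower, with a median of 1.48, and the list took 10800 CPM against 5659 CPM. Of the 23, 7 passed the minimum only through the 14 dpi library, and 10 of the other 16 were at least 2-fold higher. Lactate dehydrogenase Ldha stood at 1409 against 546 CPM (1.37), phosphoglycerate kinase Pgk1 at 990 against 364 CPM (1.44) and the lactate exporter Slc16a3 at 51.0 against 5.00 CPM (3.35). The neuronal glucose transporter Slc2a3 was at 50.1 against 1.64 CPM (4.93), and the brain aldolase Aldoc at 21.6 against 0.574 CPM (5.24). Gapdh, often taken as a reference gene, was at 2853 against 1701 CPM (0.75). The lower member was Slc16a1, a transporter of lactate and pyruvate, at 50.5 against 119 CPM (-1.24), and the pyruvate kinase Pkm was at 1040 against 1010 CPM (0.04).

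Genes induced by low oxygen outside glycolysis stood higher as well. Of 25 measured, 17 were at least 2-fold higher and none lower, with a median of 1.72, and 5 of the 25 passed only through the 14 dpi library. Of the other 20, 12 were at least 2-fold higher. Bnip3, which marks mitochondria for autophagy, was at 379 against 34.8 CPM (3.45, interval 3.31 to 3.59), and its thinned share was 28.1% of cells against 2.95%. Ndufa4l2, a mitochondrial protein, was at 45.6 against 1.15 CPM (5.31), the transcription factor Bhlhe40 at 35.2 against 2.79 CPM (3.66) and the growth factor Vegfa at 106 against 26.1 CPM (2.02). Egln3 and Ddit4 were not higher, with ratios of -0.13 and -0.50. The thinned median per cell was 5 UMIs of this list against 2, and 10 against 5 for glycolysis.

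Promoters of 3 of these genes are printed because the letters ACGTG are the core of the element bound by hypoxia-inducible factors. They have the largest ratios among measured members of both lists that hold ACGTG or its reverse complement CACGT in the 250 bases before the start in the RefSeq table. Capitals mark the matches, which can overlap each other. The windows, on GRCm38.p6, are chr7:138909507-138909756 (minus strand) for Bnip3, chr11:120948817-120949066 (plus) for Slc16a3 and chr8:45999851-46000100 (minus) for Ankrd37, an ankyrin repeat gene.
Bnip3: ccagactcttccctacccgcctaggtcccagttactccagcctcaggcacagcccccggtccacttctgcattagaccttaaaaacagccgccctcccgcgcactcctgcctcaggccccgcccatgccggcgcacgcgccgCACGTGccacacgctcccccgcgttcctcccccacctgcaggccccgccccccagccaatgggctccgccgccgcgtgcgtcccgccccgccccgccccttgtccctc
Slc16a3: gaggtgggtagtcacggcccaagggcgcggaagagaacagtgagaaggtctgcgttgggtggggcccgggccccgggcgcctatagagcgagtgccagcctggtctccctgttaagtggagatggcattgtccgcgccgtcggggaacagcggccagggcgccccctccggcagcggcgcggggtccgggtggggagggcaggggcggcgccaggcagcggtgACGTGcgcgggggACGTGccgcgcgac
Ankrd37: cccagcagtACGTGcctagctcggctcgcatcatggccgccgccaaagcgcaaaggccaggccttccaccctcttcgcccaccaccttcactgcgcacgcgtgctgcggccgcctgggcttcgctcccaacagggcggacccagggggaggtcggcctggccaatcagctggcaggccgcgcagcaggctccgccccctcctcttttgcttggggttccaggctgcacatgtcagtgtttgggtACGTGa

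The letters stood in 16 of 23 hypoxia promoters in the table (69.6%) and in 11 of 23 glycolysis promoters (47.8%), against 18.5% of all 27025 symbols. They were also in 7 of 17 class I presentation promoters (41.2%), 9 of 28 G2/M promoters (32.1%) and 1 of 22 interferon promoters. Those lists were lower at 14 dpi without supplements. Bnip3 held ACGTG and CACGT overlapping at 108 to 103 bases before its start. Ankrd37, at 28.5 against 4.92 CPM (2.53), held it 241 to 237 bases and 6 to 2 bases before its start. Such a short word is frequent in promoters, and the shares are descriptions.

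The metabolic difference stood in both ranges of cells and was smaller or absent with supplements. Among cells with more neuron marker UMIs the glycolysis median was 1.94 and the hypoxia median 1.41, and among cells with more fibroblast marker UMIs they were 1.46 and 1.58. In the library with supplements, against the same 4 dpi library, the medians were -0.13 and 0.27. Slc16a3 stood there at 6.36 CPM and Bnip3 at 57.9 CPM, and the hypoxia list summed to 2466 CPM there, 2066 CPM at 4 dpi and 5854 CPM without supplements. The parts of time, supplements, dissociation and gate in this cannot be told apart.

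Genes that answer TGF-beta were higher, in a culture from which the receptor kinase inhibitor RepSox was left out. Of 18 measured, 10 were at least 2-fold higher and 3 lower, with a median of 1.20, beside -0.03 with supplements. The summed level of the list did not show that contrast, at 2018 CPM without supplements, 1138 CPM at 4 dpi and 2051 CPM with supplements, and the thinned median per cell was 2 UMIs in both 14 dpi libraries. The feedback regulators Skil, Smad7 and Pmepa1 stood at 78.3 against 8.44 CPM (3.21), 41.2 against 16.4 CPM (1.33) and 108 against 31.4 CPM (1.79), and with supplements at 25.6, 15.2 and 25.1 CPM. The matrix-bound ligand carrier genes Ltbp2 and Ltbp1 were lower, at 4.14 against 14.3 CPM (-1.78) and 23.9 against 60.2 CPM (-1.33). Both ranges of cells gave a median above 1, at 1.17 in cells with more neuron and 1.01 in cells with more fibroblast marker UMIs.

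Receptors for the left-out factors and their partners, taken as 1 list, lay on both sides, also within a family. Of 12 measured, 4 were at least 2-fold higher and 2 lower. The minimum was passed only through the library without supplements by 3 of the 12, Ret, Cntfr and Ntrk3. Only through the 4 dpi library it was passed by 1, Gfra3. Passing in that way set the direction of these genes. Of the other 8, 1 was at least 2-fold higher and 1 lower. Ret, given above, had the highest ratio (9.40), while its co-receptor Gfra1 had -0.57. Cntfr, the CNTF receptor, stood at 31.3 against 1.64 CPM (4.26) and Ntrk3, a neurotrophin receptor, at 16.2 against 3.69 CPM (2.14). The 2 lower genes were Tgfbr2, a TGF-beta receptor, at 48.9 against 170.4 CPM (-1.80) and the GDNF-family co-receptor Gfra3 at 5.52 against 16.1 CPM (-1.55). Feedback genes and targets of Ras-ERK signalling had a median of 0.47, with 4 of 19 measured at least 2-fold higher and 2 lower. Ier3 was the highest at 242 against 70.6 CPM (1.78) and Fosl1, an AP-1 subunit, the lowest at 10.2 against 29.6 CPM (-1.54).

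**Figure D5:**
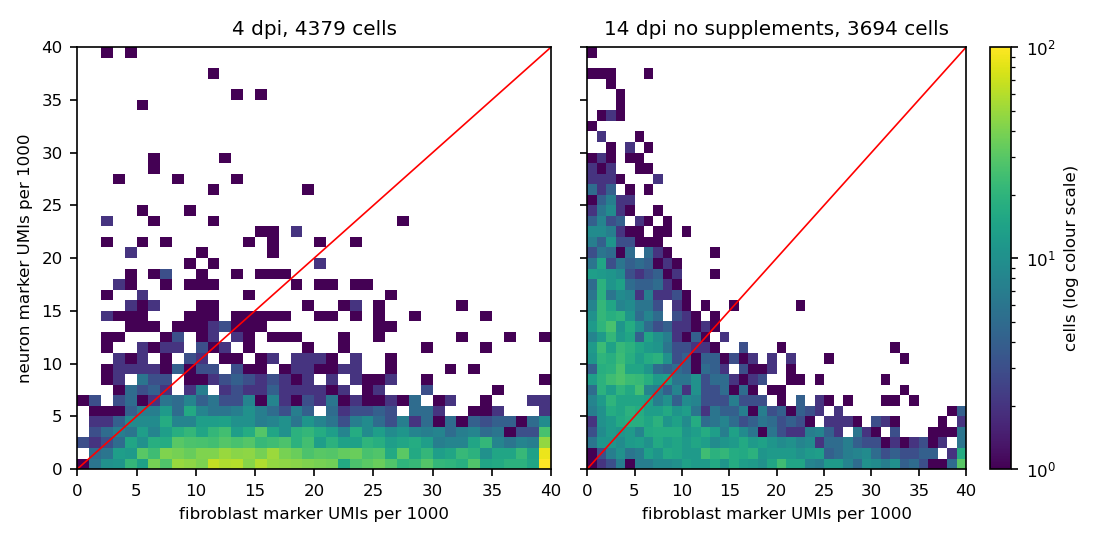
Neuron marker UMIs (y axis) against fibroblast marker UMIs (x axis) per cell after thinning to 1000 UMIs, at 4 dpi (left) and 14 dpi without supplements (right); colour gives the number of cells on a log scale, values above 39 are drawn at 39, and the red line is equality. The 4379 cells at 4 dpi lie mostly below the line, and the 3694 cells at 14 dpi spread from high fibroblast to high neuron counts.

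Cells on either side of equal marker counts were then compared between the libraries, which shows how far the summed ratios move with the mix of cells. These ranges are set by a cut on a score and are not cell types, and 518 cells at 14 dpi and 255 at 4 dpi lay within 2 UMIs of the cut. Of 9912 genes measured in cells with more neuron marker UMIs, 15.2% were at least 2-fold higher and 14.6% lower, and of 9026 measured in cells with more fibroblast marker UMIs 9.49% were higher and 8.25% lower. Among cells with more neuron marker UMIs, 3131 CPM of synaptic genes stood against 1086 CPM at 4 dpi, 20 of 25 measured members were at least 2-fold higher, and the median was 1.91. Chgb was at 5193 against 458 CPM there (3.50). Motor neuron genes did not differ in that way. Their median was 0.04 in that range, with 6 of 15 measured at least 2-fold higher and 3 lower, and they summed to 1369 against 1311 CPM. The reporter transcript v.EGFP stood in that range at 2620 against 2793 CPM (-0.09). Macrophage markers summed to 95.7 CPM in the 196 cells of that range at 4 dpi, against 3.98 CPM at 14 dpi, and their part in these values was not tested.

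Among cells with more fibroblast marker UMIs, neuronal genes stood higher too at 14 dpi without supplements. There 9 of 22 measured neuron markers and 10 of 17 synaptic genes were at least 2-fold higher, and Chgb was at 851 against 20.8 CPM (5.36). The cut itself uses the neuron markers, 2 of which, Snap25 and Syt1, also belong to the synaptic list. In that range v.EGFP was at 1102 against 60.1 CPM, and 44.8% against 2.49% of thinned cells held a UMI of it. Only the 14 dpi cells were sorted as Hb9::GFP-positive, and the part of the gate was not tested. Collagens had a median of 0.85 there, against -0.59 in cells with more neuron marker UMIs. Crabp1 stood at 671 against 7146 CPM (-3.41) and Gal at 398 against 3787 CPM (-3.25). G2/M genes had a median of -0.60 in that range, with 3 of 32 at least 2-fold lower, and -2.63 with 32 of 32 in the other.

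Several list medians were nearer 0 when only cells with the reporter transcript were taken. That choice, made before thinning, kept 88.7% of cells at 14 dpi, with 41808436 of 45855979 UMIs, and 5.97% at 4 dpi. It thus set most of the 14 dpi library against a small part of the 4 dpi library, at unlike depth. With only cells holding a v.EGFP UMI in either library, where 4 dpi had 726756 UMIs in all, the median was 2.25 for granins, 1.46 for voltage-gated channels, 1.44 for neurotransmitter receptors, 1.06 for motor neuron genes, 0.81 for microtubule-associated and motor genes, 0.55 for splicing factors and -0.00385 for tubulins. For the lists lower at 14 dpi it was -0.28 for contractile genes, -0.45 for ribosome biogenesis, -0.87 for class I presentation and -0.95 for chemokines and cytokines. Interferon-stimulated, glycolysis and hypoxia lists stood there at -2.26, 1.66 and 1.53.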

How the data were processed

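Single-cell libraries of the 10x 3′ v3.1 chemistry were compared. The authors deposited a matrix of raw UMI counts per gene and cell barcode for each library, on GRCm39 per the submitters' processing notes. Per the file headers the software was Cell Ranger 6.1.1. The calling of cells and the treatment of intronic reads are not given in these sources. The labels' protocols give about 30-60k reads per cell and about 5k at 4 dpi, so low genes are least precise there. A count of 3 is 0.0654 CPM at 14 dpi without supplements and 0.246 CPM at 4 dpi. The 31783 features were summed to 31744 symbols.

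UMIs of kept cells were summed per library and scaled to CPM, which is not scaled by gene length since 3′ reads count molecules. Ratios have Clopper-Pearson intervals on the split of UMIs, CPM values exact Poisson intervals and shares of cells Clopper-Pearson intervals. All are 95% intervals for counting error only. A count of 0 was set to 3, which makes the ratio a bound. With 1 library per group there was no test and no p-value. A gene was measured at 10 CPM or more in either library. The members and all 55 gene lists were chosen with earlier results of these data known. Named genes were the 15 highest and 15 lowest ratios by interval bound at 30 CPM or more, the 8 largest CPM differences each way, up to 3 highest and 3 lowest members of each list, and the cassette and motor neuron genes. Other list members were named for contrast. For shares, cells with at least 1000 UMIs were thinned to 1000, which left out 22 cells at 14 dpi without supplements, 113 at 4 dpi and 31 with supplements. No doublet caller was run, and leaving out the 5% of cells with the most UMIs was tried instead. There were 13 alternatives chosen at the outset and 3 added after seeing the data. Intervals and calls were tested on simulated counts. Python 3.11.15, numpy 2.4.6, scipy 1.17.1, pandas 2.3.3 and, for scaling factors in 1 alternative, edgeR 4.0.16 in R 4.3.3 were used.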

Additional observations from a re-analysis of the deposited data

Results flagged for a closer look

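The values here lay on opposite sides of 0 in the 14 dpi libraries when each was set against 4 dpi. Both comparisons share the 4 dpi library, each group is 1 library, and the differences were not tested. Galanin, Gal, had a ratio of -1.89 without supplements and 0.95 with them. The glycolysis and sugar transport list had medians of 1.48 and -0.13. Gapdh, a member of that list, had ratios of 0.75 and -0.70. The nuclear RNA Malat1 had 0.41 and -0.26 at 17150 CPM without supplements, 12930 CPM at 4 dpi and 10800 CPM with supplements. Fau, which encodes a ribosomal protein fused to a ubiquitin-like part, had 0.41 and -0.24. Ribosomal protein genes took 19.8% of UMIs without supplements, 20.9% at 4 dpi and 13.9% with them, and their part in the value of Fau was not tested.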

How the results depend on the processing

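Over 11 alternatives and 3 more chosen after seeing the data, the median ratio ran from -2.96 to -1.93 for interferon-stimulated genes, from 1.37 to 1.94 for glycolysis and from 0.91 to 2.81 for neuron markers, so that none changed sign, while that of fibroblast markers ran from -0.76 to 0.43. A minimum of 50 CPM, which tests fewer genes, left 3863, of which 487 (12.6%) were at least 2-fold higher and 370 (9.58%) lower. There 10 synaptic and 11 glycolysis members were counted as higher and 17 G2/M members as lower. No minimum gave 3466 (19.9%) and 2689 (15.45%) of 17403 genes, and turned the skeletal muscle marker median to 0.18. Without cells rich in S and G2/M UMIs, 13 G2/M genes were at least 2-fold lower, where 9.15% of 9423 genes were. That choice of cells rests on the same genes. Only cells with a v.EGFP UMI gave 2 fibroblast markers and 8 p53 targets lower, beside 11.7% of 9572 genes, and ratios of 0.75 for Angptl4 and -0.54 for v.EGFP. Cells with more fibroblast marker UMIs (added) gave 857 of 9026 genes higher (9.49%), and 9 neuron and 10 synaptic genes higher. They gave 5 fibroblast and 3 G2/M genes lower, beside 8.25% of all genes. Cells with more neuron marker UMIs (added) gave 1444 of 9912 genes (14.6%) and 7 p53 targets lower. They gave medians of 0.0153 for keratinocyte and -0.68 for sensory neuron markers, and -0.0919 for v.EGFP. The cause was not tested, other than that both ranges use the marker lists. Other scalings moved the median of all genes to between 0 and 0.10. The other 2 alternatives concern thinning and were run for shares of cells. No replicate could be left out, with 1 library per group. No paired analysis was possible because each group is 1 library and no test was run. All 40 recomputed shares moved without thinning or at 500 UMIs.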

Other observations

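Hox genes, which set position along the body, split by cluster. All 5 measured Hoxa and all 4 measured Hoxd genes were higher at 14 dpi without supplements, and all 4 measured Hoxb and all 4 measured Hoxc genes were lower. Among these 17 genes, 6 passed the 10 CPM minimum only through the 4 dpi library and 3 only through the 14 dpi library. Passing in that way set their direction. Of the other 8, 3 were at least 2-fold higher and 1 lower. Hoxa10 stood at 74.4 against 29.5 CPM (1.33) and Hoxd10 at 28.9 against 9.67 CPM (1.58), while Hoxc6 stood at 4.23 against 32.6 CPM (-2.95) and Hoxb4 at 2.92 against 17.4 CPM (-2.58). Summed over a cluster, Hoxc genes were at 31.9 against 149 CPM and 44.9 CPM with supplements, and Hoxb genes at 32.8 against 93.7 CPM and 84.2 CPM. With only cells holding a v.EGFP UMI in either library, 2 of 5 measured Hoxa genes were higher and 3 lower, all 4 Hoxd genes were higher, and all 6 measured Hoxb and all 4 measured Hoxc genes were lower. Genes of 1 cluster are neighbours and are not independent of each other.

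Xist, the RNA that coats the inactive X chromosome of female cells, was at 828 CPM without supplements, 203 CPM at 4 dpi and 398 CPM with supplements. The 4 Y-linked genes Ddx3y, Eif2s3y, Kdm5d and Uty summed to 101 CPM, 86.1 CPM and 100.1 CPM in the same order. Transcripts of both kinds were thus counted in each library, and their part in any other value was not tested.

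Among imprinted genes, Snrpn stood at 69.2 against 12.9 CPM (2.43), Peg10 at 106 against 29.6 CPM (1.84) and H19 at 275 against 115 CPM (1.25), while Igf2r stood at 128 against 289.9 CPM (-1.18). Autophagosome genes Gabarapl1, Wipi1 and Map1lc3a had ratios of 2.23, 1.98 and 1.97, and the lysosome and autophagy list held 4 genes at least 2-fold higher and 1 lower of 24. Of 15 measured immediate early genes 3 were at least 2-fold higher and 2 lower, with a median of 0.10. Fos and Dusp1 were the highest, at 74.4 against 9.51 CPM and 71.1 against 10.2 CPM, and Btg2 the lowest, with a ratio of -1.13. In cells with more neuron marker UMIs 2 of 16 measured were at least 2-fold higher and 6 lower. Krtdap, a secreted peptide of keratinocytes, was at 77.7 CPM without supplements, 10.8 CPM at 4 dpi and 2.50 CPM with supplements, and the matrix protein gene Mgp at 1366 CPM, 509 CPM and 218 CPM.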
